A study of Mus musculus with 14 samples.

Results

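The hairpins described here are 7 microRNA (miRNA) genes that are used as markers of blood vessels and connective tissue: mmu-mir-126a of endothelial cells, mmu-mir-143 and mmu-mir-145a of smooth muscle cells and pericytes, and mmu-mir-199a-1, mmu-mir-199a-2, mmu-mir-199b and mmu-mir-214 of fibroblasts and other mesenchymal cells. The prefix for mouse is left out from here on. They were chosen by name, and all 7 are among the 539 hairpins of the authors' deposited table. Small RNA had been sequenced from exosomes, small vesicles that carry miRNAs between cells, which CD11b+F4/80+ macrophages of adipose tissue released during 72 h of culture in medium with 10% serum freed of exosomes. The labels give 7 libraries from obese and 7 from lean C57BL/6 mice, without saying how the mice became obese or whether each library came from its own animal, so the p-values rest on spread that may be technical. The age labels start at 24 weeks in every library, and their upper end grows by 1 week with each listed sample, from 26 to 32 weeks in the obese and from 33 to 39 weeks in the lean group. If those labels hold, age and obesity cannot be told apart.

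A miRNA is cut from a hairpin and directs silencing of messenger RNAs that pair with its seed, bases 2 to 8 of the mature strand. The miRNA miR-126 is made from an intron of Egfl7, a gene of the endothelium, and supports signalling by vascular growth factors. The miRNAs miR-143 and miR-145 are made from one transcript and promote the contractile state of smooth muscle, while miR-199a and miR-214 are made from the noncoding RNA Dnm3os in mesenchymal cells and are linked to fibrosis. Adipose tissue holds all of these cell types around its adipocytes and macrophages, whereas miR-223 and miR-142 are markers of myeloid cells and of leukocytes in general. The labelled cell type is thus the macrophage, and the 7 hairpins are markers of its neighbours.

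The listed mature arms show which of these hairpins can be told apart by those arms and which cannot. Of the 7 hairpins, 5 were matched in the RefSeq table of miRNAs (GRCm38.p6), and mir-143 and mir-145a are named without sequence. For mir-126a and mir-199b only the 3p arm was listed, so any other arm of theirs is not compared here. Arms are written 5′ to 3′, with the seed in capitals.
miR-126a-3p: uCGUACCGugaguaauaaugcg
miR-199a-5p: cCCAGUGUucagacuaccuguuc
miR-199a-3p and miR-199b-3p: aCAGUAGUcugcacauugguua
miR-214-5p: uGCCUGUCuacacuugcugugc
miR-214-3p: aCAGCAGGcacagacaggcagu
The seeds of miR-126a-3p and of both miR-214 arms are in no other matched hairpin of the 539. The 3p arm of miR-199 is the same in 3 hairpins, so a read of it does not show which of mir-199a-1, mir-199a-2 and mir-199b it came from. The 5p arm of miR-199a is shared by mir-199a-1 and mir-199a-2 and is not found letter for letter in the mir-199b hairpin.

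The hairpins mir-199a-1 and mir-199a-2 differ outside their arms. They are shown here whole, with both mature arms in capitals, because reads of the arms fit either one.
mir-199a-1: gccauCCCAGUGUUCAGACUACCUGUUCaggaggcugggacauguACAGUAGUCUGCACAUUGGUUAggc
mir-199a-2: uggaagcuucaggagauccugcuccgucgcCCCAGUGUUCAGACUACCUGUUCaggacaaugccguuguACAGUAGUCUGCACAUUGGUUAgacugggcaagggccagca

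On GRCm38, GENCODE M21 places the hairpins as follows. The hairpin mir-126a (ENSMUSG00000065540.1) is at chr2:26591357-26591429 on the plus strand, in an intron of 7 protein-coding transcripts of Egfl7 and in an exon of 1 transcript with a retained intron. The 3 miR-199 genes each lie opposite to a dynamin gene, a family of membrane-fission enzymes. The hairpin mir-199a-1 (chr9:21496495-21496564, minus strand) is in an intron of Dnm2, and mir-199b (chr2:32318460-32318569, plus strand) is in an intron of Dnm1. The hairpins mir-199a-2 (chr1:162217814-162217923) and mir-214 (chr1:162223368-162223477) lie 5444 bases apart on the plus strand, opposite an intron of Dnm3 and in exons of Dnm3os. For the 5 hairpins with a sequence, a stretch of 20 bases shared with a gene that is no miRNA was searched in GENCODE transcripts. It was found with Egfl7, the host, for mir-126a and with Dnm3os for mir-214 and all 3 miR-199 hairpins, although Dnm3os is the host of mir-199a-2 and mir-214 only. The hairpins mir-143 and mir-145a lie 1301 bases apart on one strand, with no annotated host.

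The authors' deposited table gives for each hairpin a log2 fold change between the groups, a mean log2 expression over the libraries, and p-values, but no value for a single library. How far single libraries of the 2 groups overlap, and the depth of each, is therefore not analysed here. The table does not name the numerator of its fold changes. Published work on this material reported more miR-155 in obese exosomes, and mir-155 is at 4.41 in the authors' deposited table, so a positive value is read as higher in the obese group; this reading rests on mir-155 alone. In bulk material of this kind, fewer cells of a type and less RNA per cell cannot be told apart.

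Of the 7 vascular and stromal hairpins, 5 were among the 180 most abundant of the table, and mir-214 and mir-145a were low. By mean log2 expression mir-199a-1 came first of them, with 6.59 in the authors' deposited table, followed by 6.46 for mir-126a, 6.29 for mir-199a-2, 6.13 for mir-199b and 5.70 for mir-143. These 5 hold ranks 147 to 168 of 539. For mir-214 and mir-145a the authors' deposited table has 1.99 and 0.22 (rank 421 for mir-145a), both under the median hairpin at 2.34. Whether these levels were divided by length is not stated, and the arms printed above are 22 or 23 bases long. With libraries of equal weight, the error of a mean level would be the standard error of the fold change divided by 2, which is 0.96 for mir-126a, 0.67 for mir-143, 0.66 for mir-214, 0.61 for mir-145a and 0.30 to 0.35 for the miR-199 hairpins. On that reading, neighbours within the upper 5 differ by less than the larger of their errors, while mir-143 stands 3.71 above mir-214, the next in order, and mir-214 stands 1.77 above mir-145a.

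The macrophage and leukocyte markers were mostly more abundant. All 7 hairpins of the myeloid and pan-leukocyte list were in the authors' deposited table. Their mean log2 expression ran from 4.17 to 15.02 with a median of 9.71, against a median of 6.13 for the 7 vascular and stromal hairpins. That median of 9.71 is the value of mir-142b. The hairpin mir-142a had nearly the same level, and both had a log2 fold change of −0.46, so these 2 may not be independent measurements. The myeloid marker mir-223 was at 7.62 in the authors' deposited table, so mir-199a-1 stood 1.04 lower on the log2 scale, or 2.05-fold. Levels of 9.70 for the pan-leukocyte mir-142a and 15.02 for mir-22 are given in the authors' deposited table. At 4.17 over all libraries in the authors' deposited table, mir-511 was under all of the upper 5 vascular and stromal hairpins. It lies in a gene of alternatively activated macrophages. This hairpin was itself called, with a log2 fold change of −4.70 (limma, adjusted p = 0.0148). Its place in that order therefore need not hold within each group, and levels by group were not analysed.

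**Figure D1:**
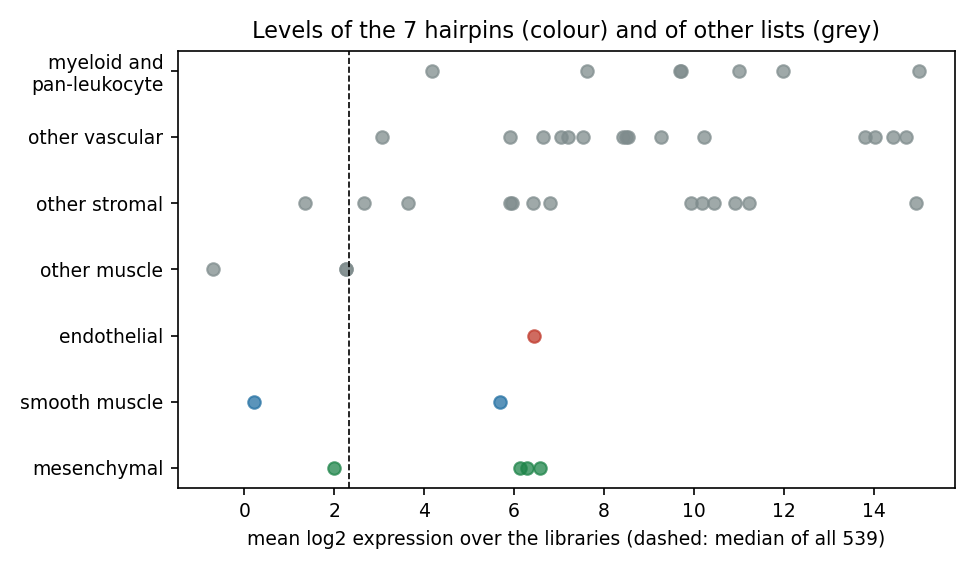
Mean log2 expression over the libraries (x axis) of the 7 vascular and stromal hairpins in colour and of 4 other lists in grey, one point per hairpin, with the median of all 539 hairpins as a dashed line. The hairpins mir-145a at 0.22 and mir-214 at 1.99 lie left of the median of 2.34, and the other 5 lie between 5.70 and 6.59.

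Hairpins that share a primary transcript stood far apart. The smooth muscle hairpins mir-143 and mir-145a, which lie 1301 bases apart, differed by 5.48 in mean log2 expression, or 44.7-fold. Within Dnm3os, mir-199a-2 was 4.30 above mir-214, or 19.7-fold, although reads of the miR-199 arms may also come from the other miR-199 genes. The table gives no spread of single libraries, so these gaps in level were not tested.

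The comparison asks whether exosomes of obese and lean macrophages differ in the miRNAs they carry. None of the 7 vascular and stromal hairpins had an adjusted p under 0.05 by limma in the authors' deposited table, and none had an unadjusted p under 0.05. Over all 539 hairpins, 5.57% were called at an adjusted p under 0.05 (30 hairpins, 11 positive or 2.04%, and 19 negative or 3.53%), and 17.6% had an unadjusted p under 0.05 in the authors' deposited table. A count of 0 among 7 is near that background and is no result about these miRNAs. Recentring the fold changes on the 180 most abundant hairpins, a shift of 0.34, gave 8 positive and 25 negative calls over the table. Fold changes were positive for 6 of the 7, with a median of 0.11 against 0.09 over all hairpins, 284 of which were positive. The signs rest on the scaling: 2 of the 7 were positive after the shift of 0.34, and 4 after a shift of 0.09, the median of all hairpins.

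The endothelial hairpin mir-126a had a log2 fold change of 0.01 in the authors' deposited table (limma, adjusted p = 0.995), which turned to −0.33 and −0.078 after the shifts of 0.34 and 0.09. Its standard error, the deposited fold change divided by t, was 1.91, and its 95% interval ran from −4.01 to 4.04. In linear terms that interval spans from 0.0621-fold to 16.4-fold. A fold change close to 1 was thus the centre of a wide range, and these data do not show that miR-126a was alike in both groups. With this error a log2 fold change of 6.76 would have been needed for a call, given the smallest absolute t that was called, 3.53.

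The smooth muscle hairpin mir-143 had the largest positive value of the 7, a log2 fold change of 1.21 in the authors' deposited table (limma, adjusted p = 0.695). Its 95% interval ran from −1.59 to 4.01, with a standard error of 1.33. Its neighbour mir-145a was at 0.02 in the authors' deposited table (limma, adjusted p = 0.991; interval −2.53 to 2.57), and turned to −0.32 and −0.070 after the shifts of 0.34 and 0.09. The smooth muscle pair thus had intervals that overlap over most of their length, and neither value was larger than its standard error.

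The miR-199 hairpins gave the narrowest intervals of the 7. In the authors' deposited table, mir-199a-1 had a log2 fold change of 0.11 (limma, adjusted p = 0.948) and an interval from −1.13 to 1.36. This corresponds to 0.458-fold to 2.56-fold, so a difference beyond 2.56-fold upward lies outside the interval of this hairpin. The intervals of mir-199a-2, which has the same arms, and mir-199b, which has the same 3p arm, reach 4.66-fold and 3.11-fold. The value of 2.56-fold is thus no bound for the mature miRNAs. The hairpin mir-199b was at 0.14 in the authors' deposited table (limma, adjusted p = 0.948), with an interval from −1.35 to 1.64. Both turned negative after the shift of 0.34, to −0.23 and −0.20. The remaining copy, mir-199a-2, was at 0.81 in the authors' deposited table (limma, adjusted p = 0.567; interval −0.59 to 2.22), the smallest p of the 7.

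The other product of Dnm3os, mir-214, was the only one of the 7 with a negative value, a log2 fold change of −1.33 in the authors' deposited table (limma, adjusted p = 0.648). Its standard error was 1.32 and its interval ran from −4.11 to 1.44. With mir-199a-2 at 0.81, hairpins of one host RNA had values of opposite sign, but their intervals overlap between −0.59 and 1.44, and the difference itself was not tested because the table holds no library values.

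**Figure D2:**
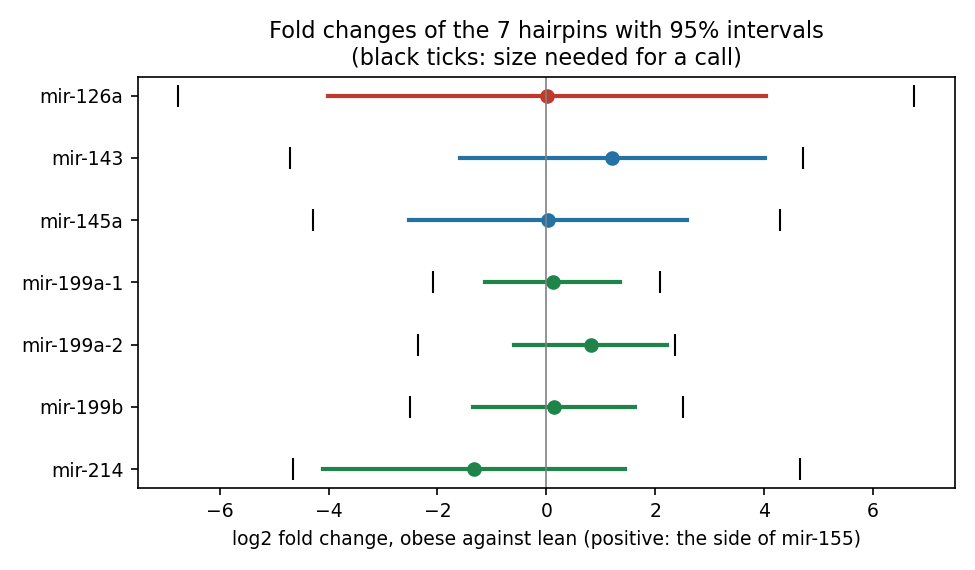
Log2 fold change (x axis, positive on the side of mir-155) of each of the 7 hairpins as a point with its 95% interval as a line, endothelial in red, smooth muscle in blue and mesenchymal in green; black ticks mark the size needed for a call at the smallest called absolute t of 3.53. Every interval spans 0 and every point lies inside its ticks, which stand at 6.76 for mir-126a and at 2.09 for mir-199a-1.

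Besides their levels, these hairpins differed from one another in the error of the comparison. The standard error of mir-126a was the sixth largest of the 539, and of the 5 hairpins with a larger one, 4 were under the median level. It was 2.10 times the median of the 40 hairpins nearest in level, and all 40 had a smaller one. Among the 168 hairpins at least as abundant as mir-143, only mir-5103 had a larger standard error, 1.99 against 1.91. For mir-143, 34 of its 40 nearest hairpins had a smaller standard error, and for mir-214 and mir-145a 30 and 28 of 40 did. The miR-199 hairpins stood at the other end, with standard errors of 0.59, 0.67 and 0.71 for mir-199a-1, mir-199a-2 and mir-199b. Only 1, 3 and 4 of their 40 nearest hairpins had smaller ones. Those sets include the other miR-199 hairpins, which share the 3p arm, so the miR-199 errors are not independent measurements. A change of 2.09 on the log2 scale would have been called for mir-199a-1, against 4.71 for mir-143 at a level only 0.89 lower. These ranks describe the table and were not tested.

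**Figure D3:**
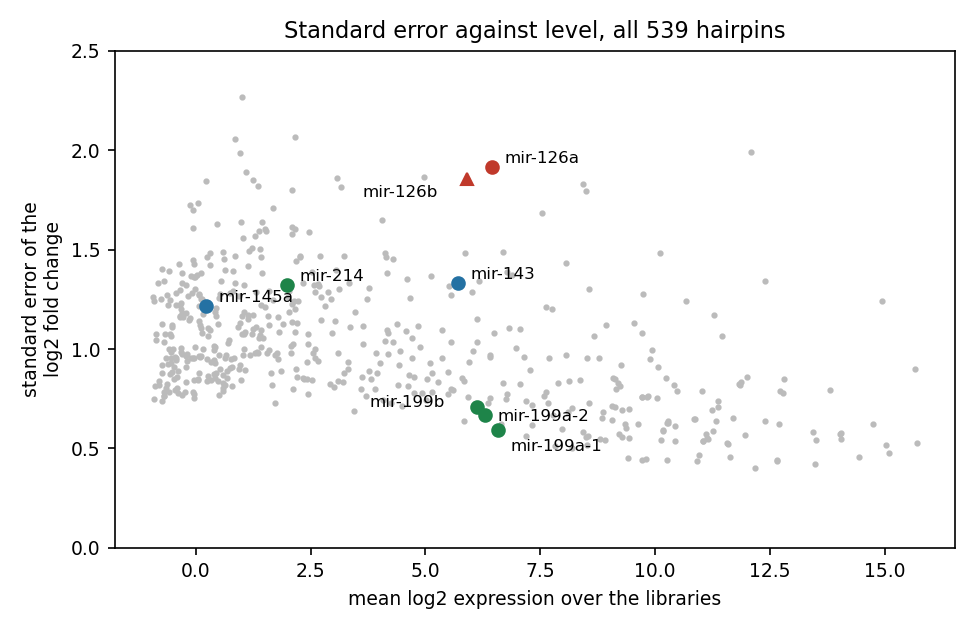
Standard error of the log2 fold change (y axis) against mean log2 expression (x axis) for all 539 hairpins in grey, with the 7 vascular and stromal hairpins as coloured circles and mir-126b as a red triangle. The pair mir-126a and mir-126b sits at 1.91 and 1.86, high above hairpins of like level, while the 3 miR-199 hairpins sit between 0.59 and 0.71 near the lower edge.

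A like error was seen for the hairpin on the strand opposite mir-126a. The hairpin mir-126b overlaps mir-126a along all 58 of its bases, on the minus strand. Its 5p arm is shown beside miR-126a-3p because they can pair with one another.
miR-126b-5p: aUUAUUACucacgguacgaguu
Reverse-complemented, it shares a run of 19 bases with the 22 of miR-126a-3p. In the authors' deposited table mir-126b had a log2 fold change of −0.18 (limma, adjusted p = 0.969) and a mean log2 expression of 5.91, 0.55 below mir-126a. Its standard error was 1.86, and 39 of its 40 nearest hairpins, all but mir-126a, had a smaller one. The sources used here do not say whether strand was used in counting, so reads of mir-126a and mir-126b may not be separable, and the pair is not counted as independent measurements. Over the 8 pairs of matched hairpins that overlap on opposite strands, the fold changes within a pair differed by 0.05 to 1.55, and mir-126a and mir-126b by 0.19.

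The copies mir-199a-1 and mir-199a-2 share both arms, yet their fold changes differed by 0.70. Among 28 pairs of copies that share at least 1 listed arm, the difference of log2 fold changes ran from 0.0021 to 4.73 with a median of 0.16. The difference was smaller than that of mir-199a in 21 pairs and larger in 6. Of the 6 pairs that share 2 listed arms, mir-199a had the largest difference. The copies were also 0.30 apart in mean log2 expression. The sources used here do not say how reads that match several hairpins were assigned. The gap of 0.70 is slightly above the standard errors of 0.59 and 0.67, each value lies inside the interval of the other, and the difference itself was not tested.

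**Figure D4:**
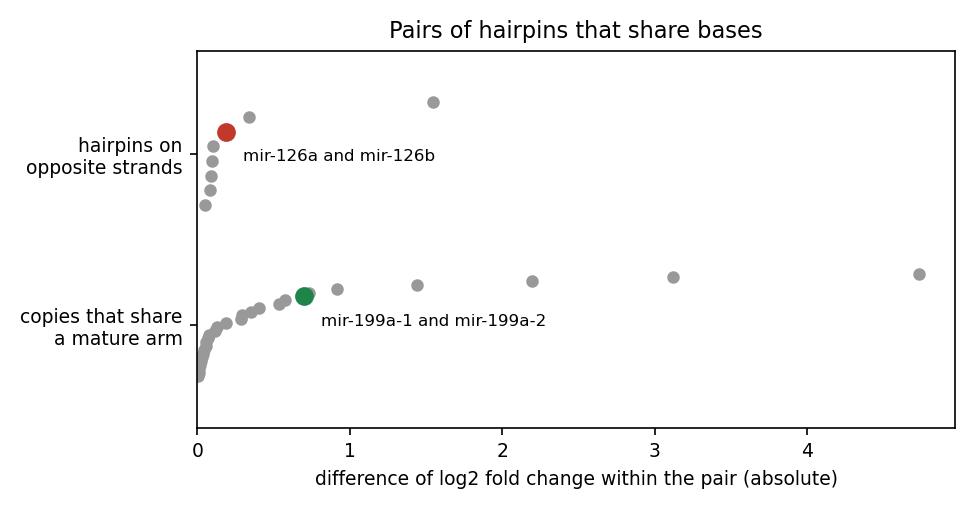
Absolute difference of log2 fold change (x axis) within each of 28 pairs of copies that share a mature arm (lower row) and each of 8 pairs of hairpins on opposite strands (upper row), one point per pair in order of size. The mir-199a copies, in green, are at 0.70, above the median of 0.16, and mir-126a with mir-126b, in red, is at 0.19.

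Other hairpins of vessels and stroma were read from lists. Of 16 further hairpins linked to blood vessel growth, 15 were in the authors' deposited table. Their median log2 fold change was 0.77, against 0.09 over all hairpins and 0.34 over the 180 most abundant. Their median level was 8.49, against 2.34 over all hairpins. They include copies that share an arm, mir-19b-1 and mir-19b-2, so they are not all independent measurements. Of the 15, 2 were called on the positive side and none on the negative, where 2.04% and 3.53% of all hairpins were called. Those called were the hypoxia-responsive mir-210 at 2.64 (limma, adjusted p = 0.00704) and mir-222 at 1.82 (adjusted p = 0.0240), a miRNA of endothelium and smooth muscle that many other cells express, in the authors' deposited table. After the shift of 0.34, 1 of these 2 was still called. The most abundant of this list were, by mean log2 expression, mir-221 (14.73), mir-222 (14.42) and mir-378a (14.04) in the authors' deposited table. Of 15 further stromal and fibrosis-linked hairpins, 13 were in the table, 10 of them positive, and 1 was called, where 5.57% of all hairpins were. The called one was the collagen-targeting mir-29b-1, at −3.66 in the authors' deposited table (limma, adjusted p = 0.0310), which shares an arm with mir-29b-2, itself at −0.54. Of the same family, mir-29a was at 2.0 in the authors' deposited table and did not pass (limma, adjusted p = 0.0614). The list's median log2 fold change was 0.45, and its most abundant hairpins, mir-21a, mir-99a and mir-125b-2, had uncalled log2 fold changes of 0.24, 1.05 and 0.45 in the authors' deposited table. Of 10 further muscle hairpins, 3 were in the table, mir-133a-1, mir-133a-2 and mir-208b, with 0.69, 0.80 and 1.09 in that order in the authors' deposited table; none was called (limma; none had an unadjusted p under 0.05). Whether these lists differ from the 7 markers was not tested.

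With 1 comparison of 2 groups, likeness to a hairpin can be read only from its fold change and level, as a distance on the log2 scale. The nearest hairpin to mir-126a was mir-500 at a distance of 0.06, with a log2 fold change of −0.02 and a mean log2 expression of 6.41 in the authors' deposited table. The standard error of mir-500 was 0.75, against 1.91 for mir-126a, so nearly equal values carried quite different errors. For mir-214 it was mir-5132 at a distance of 0.06, with −1.28 and 2.02 in the authors' deposited table. The nearest to mir-199a-1 was mir-451a, at 0.17, to mir-199a-2 mir-5121, at 0.13, and to mir-199b again mir-500, at 0.33. Those nearest to mir-143 and mir-145a were mir-700 at 0.25 and mir-6979 at 0.15.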

How the data were processed

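FastQC, MultiQC, Trimmomatic 0.30, Novoalign, limma and edgeR stand in the submitters' processing notes, with no role for any of them. The sources used here do not give the build, the miRNA annotation, filters or scaling. Per the file headers, fold changes and mean expression were deposited as log2 values, t as a score (the moderated t of limma), p-values with and without adjustment, and B as a natural log of odds. Library depth is unknown, so counting intervals cannot be given, and 0 columns hold values of single libraries.

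Dividing a fold change by its t gave the standard error, and 95% intervals were set at 17.9 degrees of freedom, recovered from t and p. Adjusting the deposited p by Benjamini-Hochberg over 539 hairpins returned the deposited adjusted p within 1.46e-14. These steps ran in Python 3.11.15 with SciPy 1.17.1 and were tested on simulated data. A hairpin is called at an adjusted p under 0.05. For each hairpin, the 40 nearest in mean expression serve as reference for its error. The naming rule takes the 7 hairpins, mir-155 and, for each of the 7, the nearest hairpin outside them by fold change and level. It also takes the called and the 3 most abundant hairpins of each further list. Hairpins added after their values were seen were mir-126b, mir-29a, mir-29b-2, mir-5103, mir-17, mir-20a and the miR-19 hairpins. The named myeloid and leukocyte markers (mir-223, mir-142a, mir-142b, mir-22 and mir-511) were also added in that way. The members and lists were chosen with earlier results of these data known. RefSeq entries were matched by symbol for 447 of 539 hairpins. Alternatives were other scalings, expression minimums, adjustments, a threshold of 0.1 and copies counted once.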

Additional observations from a re-analysis of the deposited data

How the results depend on the processing

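None of the 7 vascular and stromal hairpins was called under any of the 7 alternatives in which it was tested (limma moderated t, adjusted p 0.504 or larger). The hairpins mir-145a and mir-214 fall under both expression minimums, and mir-199a-2 is left out where copies count once. Only the shifts of 0.34 and 0.09 alter a fold change, so the other alternatives could not turn a sign. Of the 44 member values under the alternatives, 38 kept their sign. That count includes every value that was left unaltered, so it does not measure how firm the signs are. The other 6 values turned negative: after the shift of 0.34, mir-126a to −0.33, mir-145a to −0.32, mir-199a-1 to −0.23 and mir-199b to −0.20, and after the shift of 0.09, mir-126a to −0.078 and mir-145a to −0.070. The Benjamini-Yekutieli adjustment, stricter by construction, left 13 of 30 calls over the table and 1 of 3 among the 31 further vascular, muscle and stromal hairpins. Of those 31, 5 were called at an adjusted p under 0.1, and 5 also when hairpins under a mean of 10 on the linear scale, or under the median level, were left out, which tests fewer hairpins. No paired analysis was possible because single libraries have no values in it or any other file used here, and leaving out replicates could not be run for the same reason. How many reads stand behind the low levels of mir-145a and mir-214 is unknown.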

Other observations

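Large standard errors at levels above the median hairpin were also seen in other hairpins of the vessel-linked list, chosen here after their values were seen. In the authors' deposited table mir-19b-1, mir-19b-2 and mir-19a had log2 fold changes of 0.04, 0.09 and −0.40 and mean log2 expression of 8.43, 8.49 and 7.53. Their standard errors were 1.83, 1.80 and 1.68, and 40, 39 and 38 of their 40 nearest hairpins had smaller ones. The hairpins mir-19b-1 and mir-19b-2 share an arm, and each is among the 40 nearest of the other. The hairpin mir-17 of the same list, at a mean log2 expression of 8.54 in the authors' deposited table, had a standard error of 0.56. Of its 40 nearest, 7 had smaller ones. Between these lay mir-20a of that list, with a standard error of 1.10, and 29 of its 40 nearest had smaller ones.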
